A study of Mus musculus with 4 samples.

Results

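*Bpifa1* and a further 9 genes of secretory airway-type epithelium were followed in the cochlea of mice with and without outer hair cells (OHCs). The members were all non-control probes that carry the name *Bpifa1*, *Scgb1a1*, *Scgb3a1*, *Scgb3a2*, *Cyp2f2*, *Muc5b*, *Muc5ac*, *Muc4*, *Reg3g* or *Tff2* in the array files. This rule gave 10 genes with 12 probes, out of 29977 gene names and 39429 non-control probes on the array. The question was whether the order in which the 4 arrays ranked for *Bpifa1* was shared by the other secretory genes. The members were selected on earlier results of these arrays, *Bpifa1* itself on its log2 levels, so those levels are a description and nothing is tested with them.

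The 4 groups were untreated wild-type mice, wild-type mice given diphtheria toxin (DT), untreated *Prestin*-*hDTR* mice and *Prestin*-*hDTR* mice given DT. They are called WT DT(-), WT DT(+), OHC-TRECK DT(-) and OHC-TRECK DT(+) as in the labels, and groups of 4 values are given in this order throughout. The OHC-TRECK animals carry the human DT receptor under the promoter of prestin (*Slc26a5*), the motor protein of OHCs, and come from 1 transgenic line, whereas wild-type animals carry no transgene. All mice were of the C57BL/6J background (B6J in the labels) and 5 weeks old, and the treated groups received 50 μg of DT per kg of body weight 7 days before dissection. Each array measured RNA pooled from the cochleae of 4 females and 4 males. Every group is therefore represented by 1 array, no difference has a replicate check, and no p-value is given. In RNA from a whole organ, fewer cells of a type and less RNA per cell cannot be told apart.

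Secretory cells of the airways, the nasal lining and the middle ear release a fluid film that holds antimicrobial proteins and mucins, and multiciliated cells move this film. *Bpifa1* encodes a secreted protein of the BPI fold family that acts on bacteria and on the volume of the airway surface liquid. *Cyp2f2* encodes a cytochrome P450 that is typical of mouse club cells, where it oxidises inhaled compounds such as naphthalene. *Scgb1a1* (the club cell secretory protein), *Scgb3a1* and *Scgb3a2* are secretoglobins, *Muc5b* and *Muc5ac* are gel-forming mucins, and *Muc4* is a mucin anchored in the membrane. *Reg3g* is an antibacterial lectin, and *Tff2* is a trefoil peptide released together with mucus. None of these genes is a defining gene of the organ of Corti.

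All *Bpifa1* values come from 1 probe of 60 bases, which is shown because the order of the arrays rests on it. Its positions in the array files (mm9, chromosome 2, 153973411 to 153973831) span 421 bases, so the probe lies across at least 1 intron. The *Cyp2f2* probe lies on chromosome 7 (mm9, 27918570 to 27918629). Upstream sequences are given for *Bpifa1* and *Cyp2f2*, the only 2 members with a difference of 2-fold or more. Both are the 250 bases before the start of the gene in RefSeq (GRCm38.p6), chr2:154142630-154142879 and chr7:27119705-27119954, each on the plus strand. RefSeq promoters matched 5 of the 10 members. Capitals mark matches to the forkhead cores TGTTTAC and TATTTAC, the NKX2 core CAAGTG, the AP-1 site TGANTCA and the TATA box TATAAA, searched on both strands.
Bpifa1 probe: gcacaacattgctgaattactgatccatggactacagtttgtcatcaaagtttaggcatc
Bpifa1 upstream: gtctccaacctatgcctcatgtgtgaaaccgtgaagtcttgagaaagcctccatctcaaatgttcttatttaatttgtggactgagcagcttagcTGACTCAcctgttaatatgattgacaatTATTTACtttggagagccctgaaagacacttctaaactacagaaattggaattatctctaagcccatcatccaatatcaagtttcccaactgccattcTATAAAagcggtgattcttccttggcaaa
Cyp2f2 upstream: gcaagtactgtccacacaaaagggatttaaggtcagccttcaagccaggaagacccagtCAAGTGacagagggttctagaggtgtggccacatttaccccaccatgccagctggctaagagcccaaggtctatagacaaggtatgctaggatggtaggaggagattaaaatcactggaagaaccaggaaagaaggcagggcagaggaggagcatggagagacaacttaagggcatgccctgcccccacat

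The *Bpifa1* sequence held 1 AP-1 match at -155 from the gene start, 1 forkhead match (TATTTAC) at -127 and 1 TATA box at -29. The *Cyp2f2* sequence held 1 NKX2 match at -191 and none of the others, so no searched motif was present in both. Among 32851 RefSeq promoters cut to the same 250 bases, TGTTTAC occurred in 3.17%, TATTTAC in 2.73%, the AP-1 site in 6.75%, the NKX2 core in 11.6% and the TATA box in 12.4%. These matches describe the letters of the window and were not tested as binding sites. No listed motif overlapped another in either sequence.

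The arrays themselves were of comparable quality but not of equal sensitivity. Values are log2 of the background-subtracted intensity over the 75th percentile of the probes on the array, so 0 is a signal at that percentile. Between 62.2% and 70.6% of the probes were well above background by the flag of the scanner software. The lowest signal with this flag lay at -5.93 in WT DT(-) mice, -5.48 in WT DT(+) mice, -6.39 in OHC-TRECK DT(-) mice and -5.44 in OHC-TRECK DT(+) mice. Dim probes therefore had a higher limit on the DT(+) arrays of both genotypes. Of 17 inner ear markers, 16 were well above background on all 4 arrays, the exception being *Tecta*. *Ocm* (oncomodulin), an OHC marker, was at 4.36, 4.21, 4.35 and 1.97.

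The 10 members were not detected as a set. Only *Bpifa1*, *Cyp2f2*, *Scgb1a1* and *Scgb3a1* were well above background on all 4 arrays, a further 4 genes were so on 1 or 2 arrays, and *Muc4* and *Tff2* were so on none. Across the comparisons, *Bpifa1* was lower by 2-fold or more in OHC-TRECK DT(+) mice than in every other group, and *Cyp2f2* was so in comparison with both WT groups. No member was higher by 2-fold or more in any of the 5 comparisons, beside 1.01% to 2.49% of all probes.

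The intensity of *Bpifa1* was 6082 in WT DT(-) mice, 12318 in WT DT(+) mice, 4722 in OHC-TRECK DT(-) mice and 1976 in OHC-TRECK DT(+) mice. After scaling, its log2 level was 1.16, 1.96, 0.65 and -0.66. WT DT(+) mice were thus highest, then WT DT(-), then OHC-TRECK DT(-), and OHC-TRECK DT(+) mice were lowest. The steps between neighbours in this order were 0.81, 0.51 and 1.30 on the log2 scale. Repeated spots of other probes within 1 log2 unit of *Bpifa1* had a median SD of 0.047 to 0.068 on the same arrays, which gives a spot error of up to 0.096 for a difference between 2 arrays. The smallest step was 5.32 times this error. The scanner software attached an error of 608 to the intensity of 6082 and of 198 to that of 1976. These errors describe spots and leave out variation between animals.

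The highest and the lowest array differed 6.15-fold for *Bpifa1*. Of the 23688 probes well above background on all 4 arrays, 41 (0.173%) spanned at least this range. The level in OHC-TRECK DT(+) mice was lower 2.47-fold compared with OHC-TRECK DT(-), 6.15-fold compared with WT DT(+) and 3.52-fold compared with WT DT(-) mice. Over all probes compared, 1.35%, 1.83% and 1.95% were lower by 2-fold or more in these 3 comparisons. In OHC-TRECK DT(-) mice *Bpifa1* was 1.43-fold lower than in WT DT(-) mice, and after DT in WT mice it was 1.75-fold higher, both under 2-fold. The log2 effect of DT was therefore 0.81 in WT and -1.30 in OHC-TRECK mice, and their difference of -2.11 was not tested because each effect rests on 1 pair of arrays. A higher signal after DT in WT and a lower one in OHC-TRECK mice, of any size, was seen in 19.2% of the probes well above background on all arrays, and a difference of -1 or lower in 1.16%.

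*Cyp2f2* followed the same order. Its intensity was 3353 in WT DT(-) mice, 5254 in WT DT(+) mice, 2448 in OHC-TRECK DT(-) mice and 1504 in OHC-TRECK DT(+) mice. The log2 level was 0.30, 0.73, -0.30 and -1.05. The steps between neighbours were 0.44, 0.60 and 0.75, of which the smallest was 4.53 times the spot error of 0.096. That spot error was taken from probes near the level of *Bpifa1*, not of *Cyp2f2*. The scanner software attached an error of 335 to the *Cyp2f2* intensity of 3353 and of 151 to that of 1504. Its signal in OHC-TRECK DT(+) mice was lower 3.45-fold compared with WT DT(+) and 2.55-fold compared with WT DT(-) mice. The other 3 comparisons stayed under 2-fold. DT(+) was 1.68-fold below DT(-) in OHC-TRECK mice and 1.35-fold above it in WT mice, and without DT the OHC-TRECK mice were 1.52-fold below WT. The log2 effects of DT, 0.44 in WT and -0.75 in OHC-TRECK mice, differed by -1.19.

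**Figure D1:**
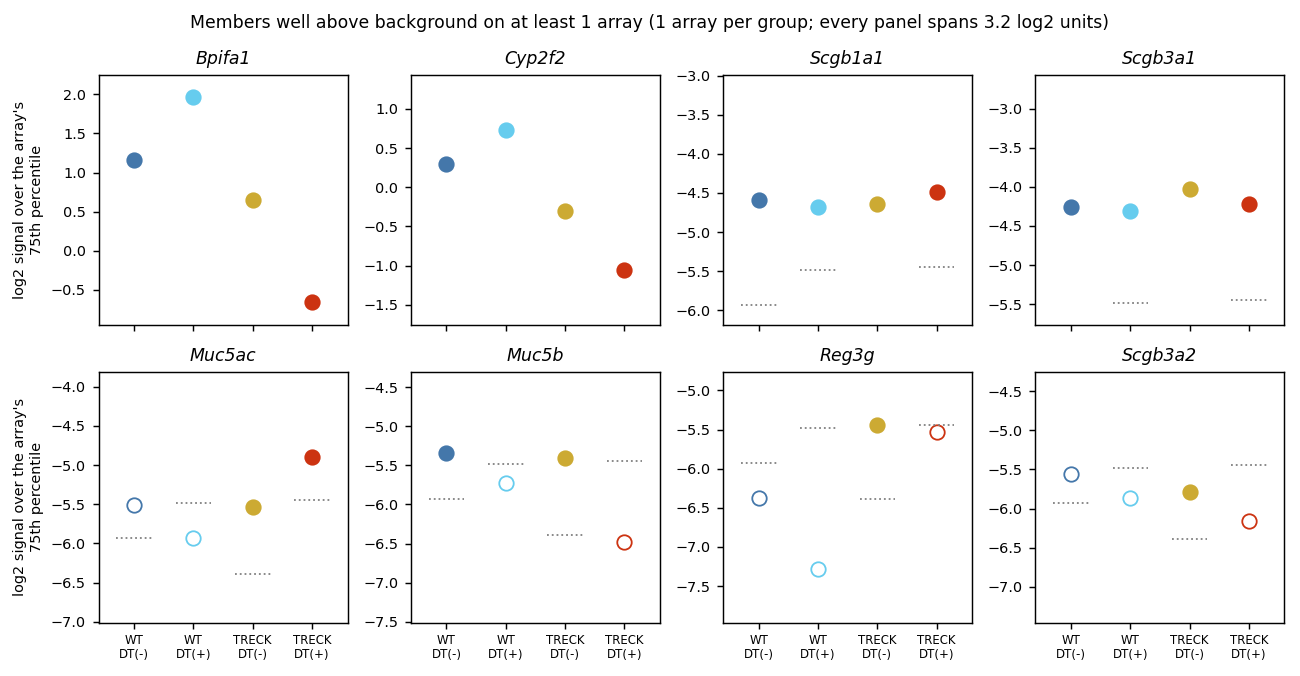
Log2 signal over the 75th percentile of the array (vertical axis) for the 8 members with a probe well above background on at least 1 array, 1 point per array, with TRECK standing for OHC-TRECK. Filled points are well above background, open points are not, and dotted lines mark the lowest signal well above background on that array where it lies in the panel. *Bpifa1* and *Cyp2f2* run in the same order from WT DT(+) to TRECK DT(+), whereas *Scgb1a1* and *Scgb3a1* span less than 0.3 log2 units.

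The secretoglobins did not share this order. *Scgb1a1* (chromosome 19), measured by 10 spots per array, had log2 levels of -4.59, -4.68, -4.65 and -4.49. The SD of its spots was 0.21 to 0.41, more than the whole range of 0.19 between the arrays, and the spots of all 4 arrays overlapped. *Scgb3a1* (chromosome 11), also with 10 spots, was at -4.25, -4.31, -4.02 and -4.22. Its spots had an SD of 0.11 to 0.20 and overlapped on all arrays, with a range of 0.28 between the arrays. Each level is a mean of 8 to 10 spots, so its error is smaller than the SD of single spots used here. For *Scgb1a1* no neighbouring arrays could be ordered beyond the spread of the spots. For *Scgb3a1*, OHC-TRECK DT(-) mice were 0.20 above the next array, more than the spot SDs of 0.11 and 0.17 on these arrays, and the other 2 steps of 0.031 and 0.052 were within the spread. The largest difference in any comparison was 1.14-fold for *Scgb1a1* and 1.17-fold for *Scgb3a1*. Both genes were dim, and 7 of the 10 *Scgb1a1* spots carried the flag in WT DT(+) mice. The limits of the DT(+) arrays, -5.48 and -5.44, left little room to follow a fall as large as that of *Bpifa1*.

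*Scgb3a2* (chromosome 18) had 2 probes. The brighter one was well above background in OHC-TRECK DT(-) mice only, at -5.79. This is below the limits of both DT(+) arrays and below its own signal in WT DT(-) mice (-5.55), which did not carry the flag, so no fold can be given. The other probe stayed below the flag on all arrays.

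The mucins were at the limit of detection. *Muc5b* was well above background in both DT(-) groups, at -5.34 in WT and -5.40 in OHC-TRECK mice, which differ 1.04-fold. It was not well above background in the DT(+) groups, where it was lower by at least 1.10-fold in WT and at least 1.03-fold in OHC-TRECK mice. *Muc5ac*, in contrast, was well above background in both OHC-TRECK groups, at -5.53 without and -4.89 with DT (1.56-fold higher). In WT mice it was not well above background. The OHC-TRECK DT(+) level was 1.53-fold above the unflagged signal of WT DT(-) mice (-5.50) and at least 1.50-fold above WT DT(+) mice. Neither mucin passed 2-fold. Both probes of *Muc4* had intensities of at most 43.6 and were not well above background on any array.

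*Reg3g* was well above background in OHC-TRECK DT(-) mice only, at -5.45, which is at least 1.40-fold above WT DT(-) mice. In OHC-TRECK DT(+) mice its intensity of 67.2 was close to the 69.3 of the DT(-) ones but did not receive the flag. *Tff2* had intensities between 9.92 and 19.6 and stayed below the flag on all arrays. Signals below the limit have no order among themselves, so the members near the limit could not be ranked over all 4 arrays. *Reg3g* was higher in OHC-TRECK DT(-) than in WT DT(-) mice, and *Muc5ac* was highest in OHC-TRECK DT(+) mice. Both differ from *Bpifa1* in this, at signals near the limit.

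Among the 4 members well above background on all arrays, *Cyp2f2* was thus the only one that shared the order of *Bpifa1*. The order itself was not rare. It was found in 3.89% of the probes well above background on all 4 arrays, and in 3.41% of the 28675 probes so on at least 1 array, where a single dim array was accepted if it came last. Combined with a range of 2-fold or more, it was held by 45 probes, or 0.19%. Among the 900 probes with such a range, 5% had this order, and 6 of the 24 possible orders were more frequent. The order held by most of them, 106 probes, ran from WT DT(+) over OHC-TRECK DT(+) and WT DT(-) to OHC-TRECK DT(-) mice.

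**Figure D2:**
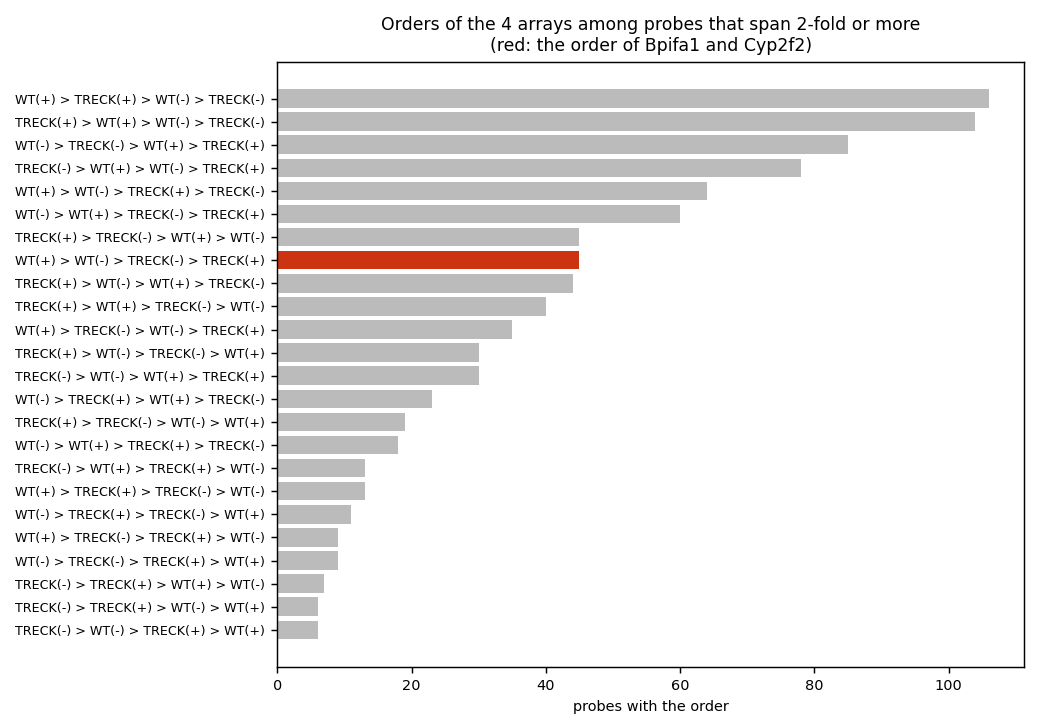
Number of probes (horizontal axis) for each of the 24 possible orders of the 4 arrays, from highest to lowest signal, among the 900 probes well above background on all arrays whose highest and lowest arrays differ by 2-fold or more; (-) and (+) stand for without and with DT. The red bar, with 45 probes, is the order of *Bpifa1* and *Cyp2f2*, and 6 orders have longer bars.

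Genes were then ranked by how closely their profile followed that of *Bpifa1*, taking the root mean square difference of the log2 values over the 4 arrays after each gene was centred on its own mean. *Cyp2f2* was second of 21917 genes, with a difference of 0.30, behind *Prss34*, a serine protease of basophils and mast cells, at 0.27. *Prss34* was at -4.12, -3.36 and -4.88 in the first 3 groups and was not well above background in the OHC-TRECK DT(+) group. The remaining named genes among the nearest 10 were *Olfr1475*, *Bglap*, *Gm4131*, *Rps15a-ps6*, *Gfi1b*, *Ackr4*, *Tnfrsf13c* and *Ankle1*, with differences of 0.41 to 0.45, and 9 of the 10 had the *Bpifa1* order. *Bglap* encodes osteocalcin of osteoblasts, *Gfi1b* a transcription factor of erythroid and megakaryocytic cells, and *Tnfrsf13c* the BAFF receptor of B cells. No other gene of the secretory lists was among them. The other 6 members with a measured probe were placed between 9823 and 20904, with differences of 0.96 to 1.18. This measure favours genes that vary as widely as *Bpifa1*, and it rests on 4 arrays. It picks genes for their likeness to *Bpifa1*, so the shared order follows largely from the selection and nothing is read from it. Like *Prss34*, *Olfr1475* and *Gfi1b* were not well above background in OHC-TRECK DT(+) mice.

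Seen from *Cyp2f2*, *Bpifa1* came at place 33. The genes nearest to *Cyp2f2* were *Tnfrsf13c*, *Bglap*, *Prss34*, *Ankle1*, *Trpm1*, *Col1a1*, *B430306N03Rik*, *Olfr1475*, *Nkx2-4* and *Padi4*, at differences of 0.16 to 0.23, and all 10 had the same order. Here too the order follows largely from the selection. *Prss34*, *Olfr1475* and *Nkx2-4* were not well above background in OHC-TRECK DT(+) mice. *Col1a1*, a collagen of bone, was at 2.50, 2.75, 1.99 and 1.52. *Bglap* was at 2.54, 2.92, 2.28 and 1.45. A total of 5 genes belonged to the nearest 10 of both members.

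Because these neighbours include genes of bone, an osteoblast list was added after the values were seen. Of its 11 genes well above background on all arrays, 7 had the *Bpifa1* order (*Bglap*, *Bglap2*, *Col1a1*, *Ifitm5*, *Ibsp*, *Dmp1* and *Alpl*), beside 3.89% of all probes. *Bglap* and *Col1a1* had prompted the list, so this count describes the pattern it was chosen for and nothing is read from it. The summed level of the osteoblast list, in units of the 75th percentile of the array, was 124, 136, 117 and 123. This full sum did not have the *Bpifa1* order. *Spp1* (osteopontin) was the brightest gene of the list, at 41.2, 43.5, 44.0 and 57.7. Without *Spp1* the sum was 82.9, 92.1, 72.6 and 65.2, which is the *Bpifa1* order. Both sums include *Bglap* and *Col1a1*, so nothing is read from this order. The median log2 ratio of the list was 0.19 for WT DT(+) and -0.22 for OHC-TRECK DT(-) against WT DT(-) mice, and -0.16 for OHC-TRECK DT(+) against OHC-TRECK DT(-) mice, where 8 of 12 genes were lower. Lists for basophils and mast cells and for B cells were also added after the values were seen. In these, 1 of 3 and 2 of 7 genes had the *Bpifa1* order, beside 3.89% of all probes. The B cell genes with it include *Tnfrsf13c*, a near neighbour of *Bpifa1* that was known before, so nothing is read from these counts either. The part of bone and blood cells in the *Bpifa1* and *Cyp2f2* values was not tested.

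**Figure D3:**
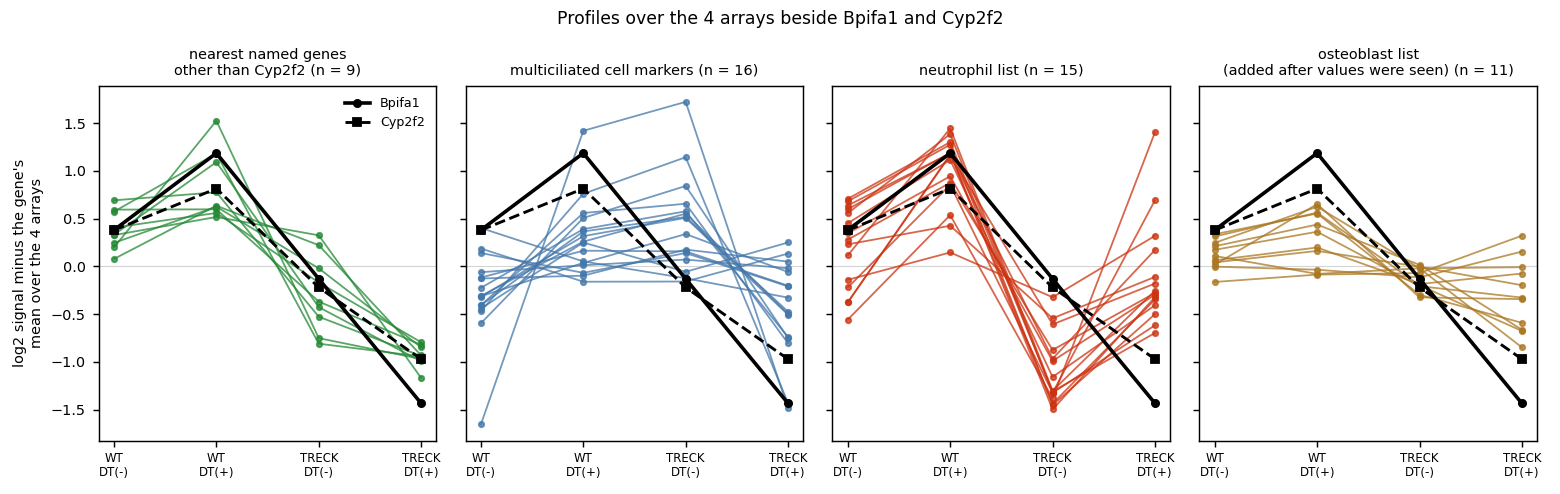
Log2 signal minus the mean of the gene over the 4 arrays (vertical axis) for *Bpifa1* (solid black) and *Cyp2f2* (dashed black) in every panel, beside the 9 nearest named genes other than *Cyp2f2* and the genes of 3 lists that were well above background on all arrays; TRECK stands for OHC-TRECK, and a dim array is drawn at its limit. Of the 16 multiciliated genes, 12 are higher with DT in WT and lower with DT in TRECK, and all 15 neutrophil genes are lowest in TRECK DT(-), unlike *Bpifa1*.

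Other measured genes of the BPI fold family had other orders. *Bpifb1*, which is secreted by the same kind of epithelium, was at -2.61, -3.22, -2.51 and -3.13, lower in both DT(+) groups. It was 1.52-fold lower after DT in WT and 1.54-fold lower in OHC-TRECK mice, so its log2 effects of DT differed by only -0.02. *Bpifb3* was at -1.16, 0.14, -0.15 and -0.46 and was 2.45-fold higher in WT DT(+) and 2.01-fold higher in OHC-TRECK DT(-) than in WT DT(-) mice. *Lbp*, the lipopolysaccharide-binding protein, was at 0.95, 1.02, 0.90 and 1.72, highest in OHC-TRECK DT(+) mice. Of the 8 family members well above background on all arrays, *Bpifa1* alone had its order, beside 3.89% of all probes, and no other one was lower by 2-fold or more in OHC-TRECK DT(+) mice in any comparison. None of the 5 secretoglobins measured on all arrays had the order. Of the 3 mucin family genes measured on all arrays, 1 had it, *Muc13*. *Muc13* was also lower by 2-fold or more in OHC-TRECK DT(+) than in WT DT(+) mice, beside 1.83% of all probes. With so few genes, these counts do not set any of these families apart from all probes.

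A wider list of 67 genes of secretory epithelium was used to see whether the lower level extended beyond the members. Of these, 63 had a probe, 52 were well above background on at least 1 array and 43 on all 4. The *Bpifa1* order was found in 1 of the 43, the flavin monooxygenase *Fmo2* (-3.41, -3.19, -3.48 and -3.91), which is 2.33% beside 3.89% of all probes. Of the transcription factors of airway epithelium, *Foxa2*, *Foxa3* and *Nkx2-1* were not well above background on any array. *Foxa1*, in contrast, carried the flag in each of the 4 groups, at -4.86, -3.79, -4.48 and -4.88. *Pigr*, the receptor that carries antibodies across epithelium, was at 4.07, 4.08, 4.08 and 3.66, which is 1.34-fold lower in OHC-TRECK DT(+) than in OHC-TRECK DT(-) mice.

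For OHC-TRECK DT(+) against OHC-TRECK DT(-) mice, the median log2 ratio of the wider list was 0.24 over 47 genes, beside 0.0051 over all genes. A total of 9 genes were higher by 2-fold or more and 0 were lower, beside 2.49% and 1.35% of all probes. Epithelial genes among them were *Elf3* (an epithelial transcription factor; 2.48-fold), *Cldn4* (a claudin of tight junctions; 2.16-fold) and *Gp2* (at least 3.05-fold). *Cldn4* was near the limit, at -5.25 without and -4.14 with DT. *Gp2* was well above background in OHC-TRECK DT(+) mice only, at -4.78. Its fold rests on the low limit of -6.39 of the DT(-) array and was at least 1.62 against WT DT(+) mice. *Spdef*, a transcription factor of goblet cells, was 1.96-fold higher at levels of -4.66, -4.88, -4.57 and -3.60 in the 4 groups. The 9 genes also included those of the antimicrobial or protease-inhibiting proteins *Ltf*, *Lcn2*, *Lyz1*, *Lyz2* and *Slpi*, with *Slpi* 5.77-fold and *Lyz2* 4.28-fold higher. *Lyz2* is also a gene of macrophages, and *Ltf* and *Lcn2* are also on the neutrophil list.

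Against WT DT(+) mice, OHC-TRECK DT(+) mice had a median of 0.20 over 47 genes of the wider list, beside 0.010 over all genes. Here 5 genes were higher (*Lyz1*, *Cldn4*, *Elf3*, *Spdef* and *Lyz2*) and 4 were lower (*Ltf*, *Hp*, *Cyp4b1* and *Foxa1*), beside 1.41% and 1.83% of all probes. *Cyp4b1*, another cytochrome P450 of club cells, was at -5.59, -3.96 and -6.12 in the first 3 groups. It was not well above background in the OHC-TRECK DT(+) group, at least 2.80-fold below WT DT(+) mice. It shared with *Bpifa1* and *Cyp2f2* the highest level in WT DT(+) mice, but its lowest arrays could not be ordered. Against WT DT(-) mice the median was 0.30, with 8 genes higher, including *Krt8* (2.38-fold), and *Tff3* lower by at least 2.63-fold, beside 1.96% and 1.95% of all probes. *Tff3* was well above background in WT DT(-) mice only, at -4.05, so this call rests on 1 array.

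The wider list was also followed in the comparisons without OHC loss. For WT DT(+) against WT DT(-) mice its median was 0.10, beside -0.036 over all genes, with 7 genes higher (*Foxa1*, *Lcn2*, *Hp*, *Agr3*, *Slpi*, *Ltf* and *Cyp4b1*) and *Tff3* lower, beside 1.46% and 1.09% of all probes. In OHC-TRECK DT(-) against WT DT(-) mice the median was 0.055, beside -0.016, with *Agr3* higher by 2.70-fold and genes including *Tff3*, *Hp*, *Ltf*, *Slpi* and *Lcn2* lower, beside 1.01% and 2.32% of all probes. *Ltf*, for example, was at -0.11, 1.22, -1.53 and -0.48, so that OHC-TRECK DT(-) mice were lowest. The lower calls of *Tff3* in both comparisons rest on the same WT DT(-) signal.

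**Figure D4:**
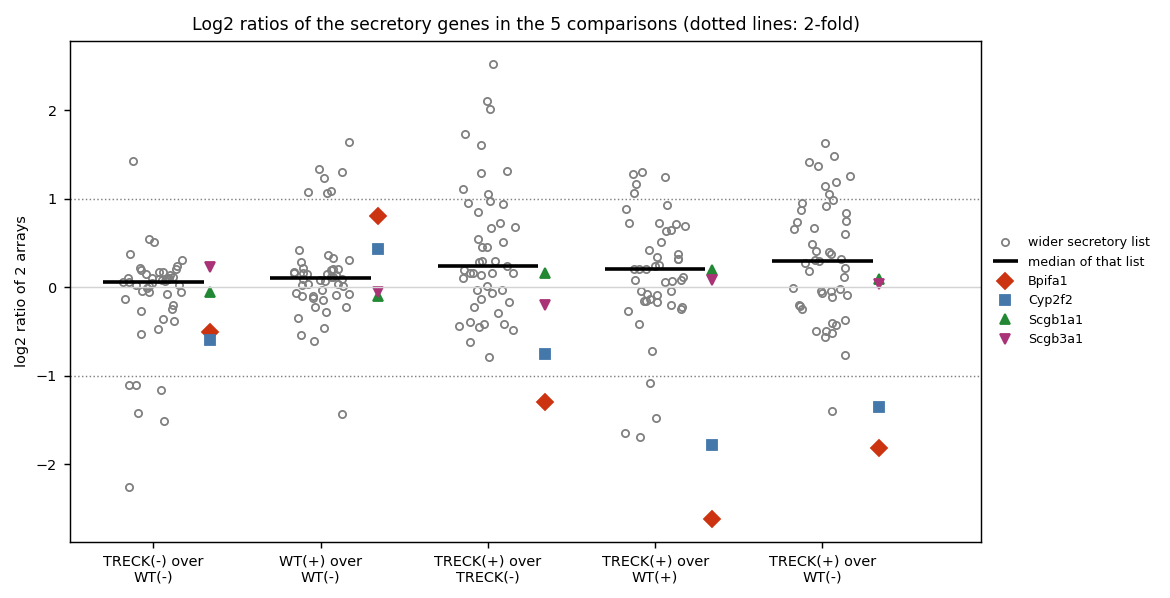
Log2 ratio of 2 arrays (vertical axis) in the 5 comparisons for the wider secretory list (grey circles, with the median as a bar) and for the 4 members measured on all arrays (coloured symbols); TRECK stands for OHC-TRECK, (-) and (+) for without and with DT, and dotted lines mark 2-fold. In the 3 comparisons of TRECK(+), *Bpifa1* lies below the dotted line each time and *Cyp2f2* in 2 of them, while *Scgb1a1* and *Scgb3a1* stay near 0.

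Markers of the other cell types that accompany secretory cells were compared with *Bpifa1* directly. Of 28 multiciliated cell genes on the array, 26 were well above background on at least 1 array and 16 on all 4, and none of the 16 had the *Bpifa1* order, beside 3.89% of all probes. *Cfap52*, a ciliary protein, was at -5.58, -2.50, -2.20 and -5.41, and *Fam183b* at -2.82, -1.59, -1.20 and -3.78. These genes shared with *Bpifa1* the higher signal after DT in WT and the lower one after DT in OHC-TRECK mice, which was seen in 12 of the 16, beside 19.2% of all probes, but were high rather than low in OHC-TRECK DT(-) mice. Their summed level was 14.1, 12.9, 12.7 and 9.68, in the units used above, over the 19, 19, 25 and 16 genes well above background on each array. *Mcidas*, a regulator of multiciliated cell differentiation, made up 10.2, 8.00, 7.08 and 6.15 of it. Without *Mcidas* the sum was 3.91, 4.88, 5.61 and 3.53, highest in OHC-TRECK DT(-) mice and higher after DT in WT mice. *Cyp2g1*, a cytochrome P450 of the olfactory lining, had the pattern of *Cfap52*, at -5.27, -3.19, -2.83 and -5.13. It was the only one of 5 nasal and olfactory genes measured on all arrays with this direction of both DT effects, and *Omp*, *Cnga2*, *Gng13* and *Obp1a* were all lower after DT in WT mice. All 5 salivary and lacrimal gland genes measured on all arrays had it, and 1 of them, *Prb1*, had the *Bpifa1* order, at -3.75, -3.75, -3.98 and -4.20, with a step of 0.0053 between the WT arrays.

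All 15 neutrophil genes were well above background on all arrays, and none had the *Bpifa1* order. Their summed level was 42.2, 66.3, 14.9 and 25.9. They shared with *Bpifa1* the higher level after DT in WT mice and the lower one in OHC-TRECK DT(-) than in WT DT(-) mice, but all 15 were higher after DT in OHC-TRECK mice. All 5 measured basal cell genes stayed under 2-fold in every comparison, with *Krt5* at -4.20, -4.40, -4.34 and -4.41 and *Trp63* at 0.97, 0.92, 0.76 and 0.67. *Krt14* was the one with the *Bpifa1* order, at -3.11, -2.75, -3.26 and -3.28, with a log2 ratio of only -0.022 between the OHC-TRECK arrays. *Sftpc* and *Sftpa1*, which define alveolar type 2 cells of the lung, were not well above background on any array. *Lamp3* of the same list had the order within a range of 2.03 to 2.22. Its log2 ratio of OHC-TRECK DT(-) over WT DT(-) mice was only -0.0019, so these arrays were hardly separated. Whether airway-type or middle ear tissue was carried along in the dissection was not tested.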

How the data were processed

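Pooled RNA of each group, Cy3-labelled, was hybridised to its own Agilent mouse array on 1 slide. The authors deposited the output of Agilent Feature Extraction 11.5.1.1, whose intensity per spot is linear, background-subtracted and not scaled between arrays. A deposited table of scaled intensity holds the same values over 1 constant per array and served as an alternative. Control and outlier spots (149 to 228 per array) were dropped and the spots of a probe averaged. Intensities were divided by the 75th percentile of the probes of their array, and log2 was taken. A flag held for a probe when more than 0.5 of its spots carried it. Probes well above background on at least 1 of 2 arrays were compared, and 2-fold was called a change. A dim signal was raised to the lowest signal well above background on its array unless its own was higher. A fold against a raised signal is a lower bound ("at least"). The probe with the highest mean stood for a gene.

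RefSeq gave gene names to 29803 probes through the symbol, to 1634 through an accession and to 295 through a synonym, while 7697 kept the name in the array files. The members, gene lists and rules were chosen with earlier results of these data known. The named genes are the members, genes of the lists at 2-fold or more or among the 3 highest or lowest ratios, and the 10 genes nearest to *Bpifa1* and *Cyp2f2*. Other list genes (*Pigr*, *Spdef*, *Foxa1*, *Fmo2*), the 3 added lists and the 5 motifs were chosen after values were seen. A result of the wider list that is withheld is not reported here. No test was made with 1 array per group, whose number limits the precision. The steps were tested on simulated data. Versions were Python 3.11.15, numpy 2.4.6, pandas 2.3.3, matplotlib 3.10.9, R 4.3.3 and, for normexp only, limma 3.58.1.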

Additional observations from a re-analysis of the deposited data

Results flagged for a closer look

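The effect of DT ran in opposite directions in the 2 genotypes for *Bpifa1* and *Cyp2f2*, higher in WT and lower in OHC-TRECK mice, with a difference of the log2 effects of -2.11 for *Bpifa1* and -1.19 for *Cyp2f2*. Among the genes of the fixed lists, the same was seen with at least 2-fold in each direction for *Cfap52* (difference -6.28), *Cyp2g1* (-4.38), *Fam183b* (-3.80) and *Mlf1* (-2.70). Each effect rests on 1 array per group, and none of these differences was tested. No group holds enough arrays to look for an array that stands apart.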

How the results depend on the processing

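The order of the 4 arrays for *Bpifa1*, and *Cyp2f2* as the only other member with it, were the same under all 8 alternatives: normexp background correction with an offset of 50, quantile normalization, a shift to the median of probes well above background on all arrays, only such probes, no filter, no floor, the deposited table of scaled values, and the mean over the probes of a gene. *Bpifa1* and *Cyp2f2* have 1 probe each, well above background on all arrays. Their values could therefore not change with only such probes, no filter, no floor or the mean over probes. The deposited table holds the same intensities over 1 constant per array. The log2 ratio of *Bpifa1* in OHC-TRECK DT(+) against WT DT(+) mice stayed between -2.63 and -2.61, and against OHC-TRECK DT(-) mice between -1.31 and -1.28. Without a floor, *Muc5b* was also lower by 2-fold in OHC-TRECK DT(+) mice against OHC-TRECK DT(-) mice, which gave 2 members, and against WT DT(-) mice, which gave 3, and *Muc5ac* was higher against WT DT(+) mice, which gave 1. Both rest on signals not well above background. Without a filter, the median of the wider list was 0.55 in OHC-TRECK DT(+) against OHC-TRECK DT(-) mice, 0.035 against WT DT(+) and 0.48 against WT DT(-) mice, and -0.044 in OHC-TRECK DT(-) against WT DT(-) mice. Dim genes then enter at the limits of their arrays, which differ. The 0.035 is then below the 0.16 of WT DT(+) against WT DT(-) mice, and with the mean over probes the medians of these comparisons were 0.12 and 0.15. A common limit for all arrays, added after the data were seen, changed no count of members. No paired analysis was possible because each group holds 1 array, and for the same reason no array could be left out. Signal near background limits *Scgb3a2*, *Muc5b*, *Muc5ac*, *Muc4*, *Reg3g* and *Tff2*. *Scgb1a1* and *Scgb3a1* were well above background on all arrays but dim, which limits how large a fall could be seen.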
